A study of Rattus norvegicus with 4 samples.

Results

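Gene expression was compared between 2 arrays labelled estradiol, 1 taken 24 h and 1 taken 6 h after the injection, out of 4 arrays in the study. The comparison covers 8740 of the 8799 probe sets of the Affymetrix rat genome array. The remaining 59 are the manufacturer's control probe sets. The tissue was myometrium, the contractile layer of the uterus, from rats ovariectomized at 60 days of age, a week before treatment. Per the labels the animals of both arrays received estradiol benzoate, a long-acting ester of the hormone, at 10 µg per kg under the skin. The arrays labelled control, also at 24 h and 6 h, came from ovariectomized rats given vehicle. Each array carried the RNA of 6 pooled animals, so no group has a spread between replicates and no difference was tested. In such a pool, fewer cells of a type and less RNA per cell cannot be told apart.

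A probe set was called when its signals differed at least 2-fold and the brighter array lay above its floor, the 40th percentile of that array. Where the dimmer array lay at its floor, the fold is a lower bound and is written as at least N-fold. The log2 differences are 24 h minus 6 h throughout, on signals raised to that floor. Each gene was taken as its brightest probe set. Of 4736 genes 3397 are called measured, since 1 or both of the 2 arrays exceeded the floor. Of these, 2906 were above it on both arrays and 491 on 1 array, while the other 1339 genes gave no comparison. At 24 h 197 genes, 5.8% of those measured, were at least 2-fold higher than at 6 h, and 339 genes, 9.98%, were at least 2-fold lower. By probe set the counts were 369 and 572 of 5725.

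Both arrays of the pair are labelled estradiol, yet genes known to be induced by estradiol in the uterus differed strongly between them. Igf1, Pgr, S100g, Hsd11b2 and Cd24 were high on the 24 h array labelled estradiol and the 6 h array labelled control. They were low on the 6 h array labelled estradiol and the 24 h array labelled control. The 6 h labels thus go against these genes, and the arrays are called below by their labels only. The 6 h array labelled control is set beside the main results, and with it in place of the one labelled estradiol 21 of the called genes named here changed sign. The scan day and the time cannot be told apart, because per the file headers both 24 h arrays were scanned on 1 day and both 6 h arrays on another. The estradiol pair does not include the 24 h array labelled control, whose wash record stopped with a communication error.

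Estradiol acts through nuclear receptors that bind DNA at estrogen response elements and through kinase signals. In the uterus it is known to raise growth factors, the progesterone receptor and calcium-binding proteins, and to be followed by growth of the tissue with more protein synthesis, lipid synthesis and secretion. The circadian clock is a loop of transcription factors that runs in most tissues, and its output genes peak at set hours of the day. Interferon-stimulated genes encode antiviral proteins and are switched on together by the STAT and IRF factors.

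The quality values of the pair differed most in the spiked-in transcripts. Over 9 probe sets for the added bacterial transcripts, the geometric mean signal at 24 h was 3.085 times that at 6 h, with a range of 1.713 to 5.319. The same ratio was 1.75 between the arrays labelled control. The 3′ to 5′ signal ratio of GAPDH was 1.152 at 24 h and 1.108 at 6 h, and that of beta-actin was 1.235 and 1.244. The median log2 difference over all measured genes was -0.18, and by signal level it ran from -0.29 in the dimmest of 5 equal bins of probe sets to 0.20 in the brightest. Scaling to a common median moved the median over genes to 0.04 and the counts to 330 higher and 198 lower, and quantile normalization moved them to -0.04, 246 and 235. The lists below are read against these shifts. For 802 genes with 2 or more probe sets that exceeded the floor, the log2 differences within a gene spanned a median of 0.43, and 133 genes spanned over 1. Gipc1, Myh11, Ndufb8 and Ptprs had probe sets called in opposite directions.

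**Figure D1:**
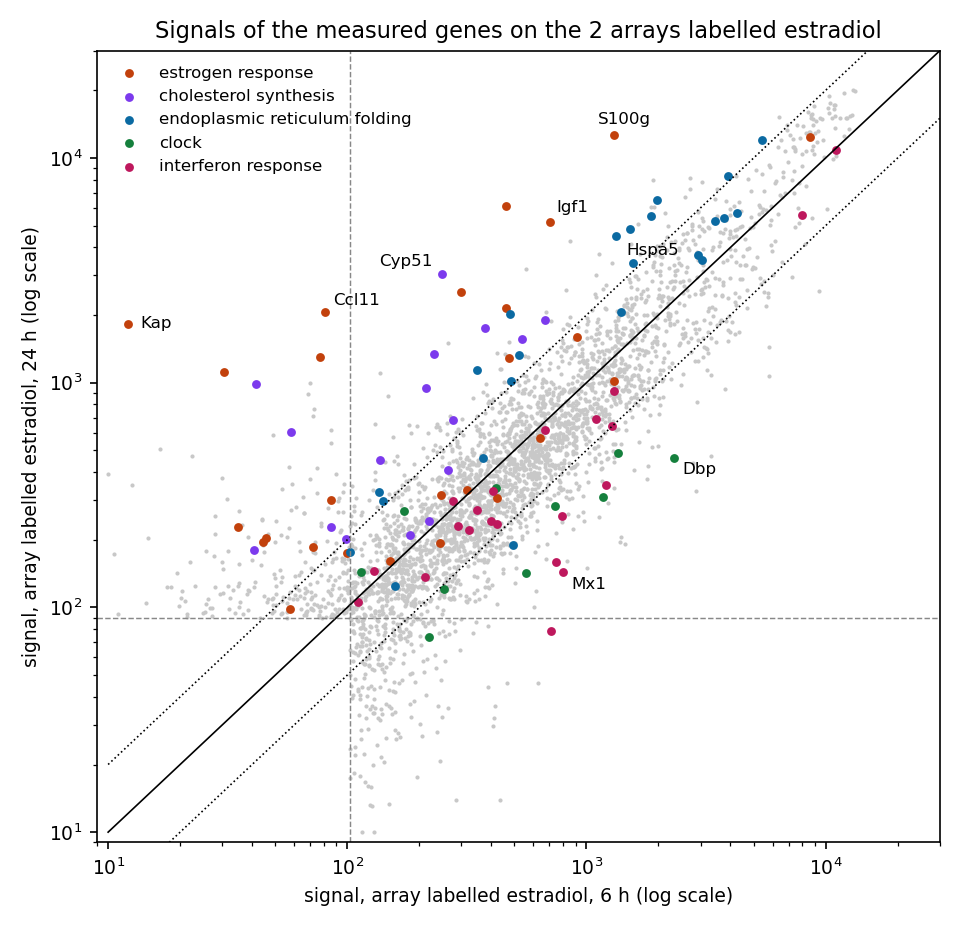
Signal of each measured gene on the 24 h array labelled estradiol (vertical) against the 6 h array labelled estradiol (horizontal), both on log scales, with signals under 10 drawn at 10. The dashed lines are the floors at 89.5 and 102.5, the solid line is equality, the dotted lines are 2-fold, and coloured points are genes of 5 lists. Ccl11 and Kap lie at the upper left, and Dbp and Mx1 below the lower 2-fold line.

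Estrogen-regulated genes of the uterus were higher on the 24 h array. A list of 35 such genes had 29 on the array and 26 measured. This list and those below were chosen with earlier results of these data known. Their counts are thus descriptions and give no independent support. Of these, 12 were at least 2-fold higher at 24 h and 0 were lower, against 5.8% and 9.98% of all measured genes. Of the 26, 11 exceeded the floor on 1 array only, against 491 of all 3397 measured genes. Such genes, Ccl11, Kap, Cuzd1 and C3 among them, count as measured through their brighter array alone. The share of 12 in 26 thus depends in part on that filter. The median log2 difference of the list was 0.96. Against the 6 h array labelled control, 5 of 27 genes were higher and 3 lower, and the median was 0.12, where 6.01% and 9.66% of all genes were called. Between the arrays labelled control 1 of 22 was higher at 24 h and 9 lower with a median of -0.61, where 7.93% and 10.1% of all measured genes were called.

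Igf1, the insulin-like growth factor made by uterine stroma and muscle, had a signal of 5182 at 24 h and 704 at 6 h on the arrays labelled estradiol, and of 665 and 7872 on those labelled control. Its log2 difference was 2.88, or 7.36-fold, though 1 of its 5 probe sets, which by its name shares probes with the brightest, gave -0.22. Pgr, the progesterone receptor, had signals of 2143 and 461 under the estradiol label and of 654 and 2669 under the control label, a 4.65-fold difference in the estradiol pair. Both genes were thus high on the same 2 arrays, and those carry different labels.

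S100g, the calcium-binding protein calbindin-D9k, had signals of 12673 and 1306 under the estradiol label and 4619 and 13858 under the control label, and its log2 difference was 3.28. Hsd11b2, which inactivates glucocorticoids, had signals of 6123 and 462 against 809 and 3849, a 13.3-fold difference in the estradiol pair. Cd24, a surface glycoprotein of epithelia and leukocytes, was 8.47-fold higher at 24 h, with signals of 2542 and 300 against 401 and 2199. Odc1, the first enzyme of polyamine synthesis, followed the same order of arrays with 1288 and 475 against 185 and 1282, and was 2.71-fold higher. Against the 6 h array labelled control, none of these 4 genes differed 2-fold on the 24 h array labelled estradiol, nor did Igf1 or Pgr.

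Other members of the list were brightest on the 24 h array labelled estradiol. Kap, an androgen-regulated protein best known from the kidney, had signals of 1832 and 12.1 under the estradiol label and 25.5 and 10.3 under the control label, which made it at least 17.9-fold higher. C3, the complement component secreted by estrogen-treated uterine epithelium, had signals of 1118 and 30.4 against 10.8 and 48.7 and was at least 10.9-fold higher. Cuzd1, a secreted uterine protein, had signals of 1306 and 76.7 against 62.7 and 23.9 and was at least 12.7-fold higher. For these 3 genes every other array lay below its floor, so their difference does not turn on which 6 h array is used. Ccl11, the eosinophil chemoattractant eotaxin, had signals of 2073 and 80.7 against 211 and 618 and was at least 20.2-fold higher.

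The contraction-associated members were dim. Oxtr, the oxytocin receptor, had signals of 302 and 85.4 under the estradiol label against 93.0 and 209 and was at least 2.95-fold higher at 24 h. Gja1, the gap junction protein connexin 43, had signals of 229 and 34.9 against 107 and 113 and was at least 2.23-fold higher, but with a floor at the 60th percentile its log2 difference was -0.21. Esr1, the estrogen receptor alpha, was not called, with 195 and 44.6 against 254 and 53.1. The early estrogen targets Fos, Myc and Vegfa were not called either, with log2 differences of -0.18, 0.36 and -0.46 on their brightest probe sets. Another probe set of Vegfa was called higher, at 1.43, so that gene has no single direction. On the brightest probe sets these 3 had their highest signal, 1444, 723 and 695, on the 6 h array labelled control, and each was at least 2-fold lower than that on the 24 h array labelled estradiol.

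**Figure D2:**
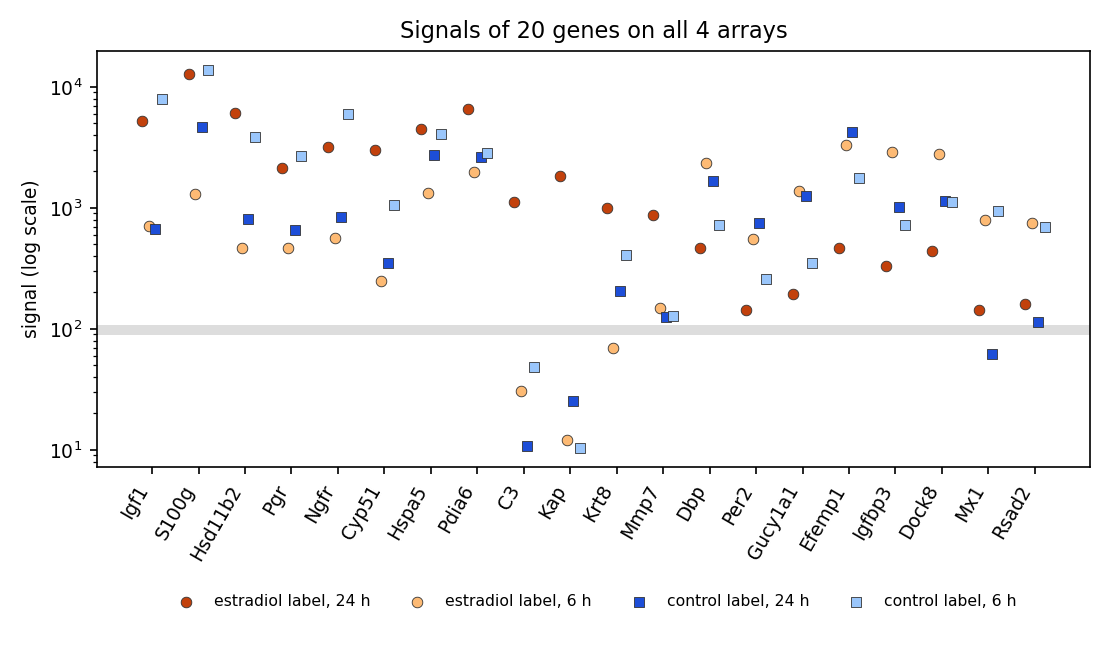
Signals of 20 genes on all 4 arrays, on a log scale. Circles are arrays labelled estradiol and squares arrays labelled control, dark at 24 h and light at 6 h, and the grey band spans the floors of 89.5 to 108.2. From Igf1 to Cyp51 the light circle and the dark square are low, and for Mx1 and Rsad2 both light symbols are high.

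Genes of cholesterol synthesis were higher at 24 h as a group. The list of 28 genes had 16 on the array, and all 16 were measured. Each had a log2 difference above 0, 11 were called higher and 0 lower, and the median was 1.53. Of the 16, 5 exceeded the floor on 1 array only, and so count as measured through their brighter array. Among all measured genes 5.8% were called higher and 9.98% lower. Against the 6 h array labelled control, 7 of 16 were still at least 2-fold higher and 0 lower, with a median of 0.96. Between the arrays labelled control, 0 were higher at 24 h and 6 of 14 lower, with a median of -0.90. Over all genes, 6.01% were higher and 9.66% lower in the former comparison, and 7.93% and 10.1% in the latter.

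Cyp51, the lanosterol demethylase, had signals of 3034 and 249 under the estradiol label and 348 and 1048 under the control label, a 12.2-fold difference in the estradiol pair. Of its 5 probe sets 4 were called higher. Idi1, which isomerizes the isoprene unit, had signals of 987 and 41.5 against 71.7 and 376 and was at least 9.63-fold higher. Fdft1, the squalene synthase, had signals of 606 and 58.0 against 73.2 and 211 and was at least 5.91-fold higher. These enzymes were brightest on the 24 h array labelled estradiol, next on the 6 h array labelled control and dim on the other two.

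Sqle, the squalene epoxidase, was 4.41-fold higher with signals of 942 and 214 against 184 and 417. Fdps, which makes farnesyl diphosphate, was 4.62-fold higher with 1744 and 378 against 423 and 749. Insig1, the sterol-sensing retention protein, was 5.83-fold higher with 1341 and 230 against 354 and 692. Against the 6 h array labelled control, Fdps and Sqle were still called higher, while Insig1 had a log2 difference of 0.95.

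Fatty acid genes were divided. Of 32 measured genes 3 were higher and 3 lower, against 5.8% and 9.98% of all measured genes, and the median was 0.21. Scd, the stearoyl-CoA desaturase, had signals of 505 and 16.5 against 66.7 and 116 and was at least 4.92-fold higher. Fabp5, a fatty acid carrier, and Dbi, the acyl-CoA binding protein, were 3.26-fold and 3.04-fold higher. Lpl, the lipoprotein lipase, was 2.68-fold lower with 456 and 1222 against 2775 and 565. It was thus bright on the arrays where the sterol enzymes were dim.

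Folding and translocation genes of the endoplasmic reticulum, where secreted proteins are made, were higher at 24 h. The list of 40 genes had 24 on the array. Of 23 measured genes 13 were called higher and 1 lower, 21 had a log2 difference above 0 and the median was 1.08. Over all measured genes 5.8% were higher and 9.98% lower. Against the 6 h array labelled control 9 of 23 were higher and 0 lower, and the median was 0.83. Between the arrays labelled control 0 of 22 were higher and 1 lower, and the median was 0.06. The shares over all genes were 6.01% and 9.66% with the other 6 h array, and 7.93% and 10.1% under the control label. The list was thus shifted upwards with either 6 h array.

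Serp1, which stabilizes nascent membrane proteins, was 4.2-fold higher, with signals of 2015 and 480 under the estradiol label and 1152 and 823 under the control label. Hspa5, the main chaperone BiP, was 3.4-fold higher with 4503 and 1325 against 2726 and 4073. Pdia6, a disulfide isomerase, was 3.31-fold higher with 6525 and 1970 against 2639 and 2840. Sec61a1 and Sec61b, subunits of the translocation channel, were 3.26-fold and 3.19-fold higher. Hsp90b1, the chaperone GRP94, was 2.96-fold higher with 5496 and 1858 against 2336 and 2574. Except for Hspa5, for which the 6 h array labelled control was nearly as bright, these genes stood highest on the 24 h array labelled estradiol by at least 2-fold over that array.

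Ddit3, the stress-induced factor CHOP, was the member called lower, with signals of 190 and 491 against 527 and 300. Calr and Canx, the lectin chaperones calreticulin and calnexin, were not called, with log2 differences of 0.42 and 0.20. Ddit3, Calr and Canx were chosen after their values were seen.

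The endoplasmic reticulum stress element, read here as CCAAT, any 9 bases and CCACG on either strand, was searched in the 300 bases of promoter (250 before to 50 after the start) that RefSeq gives on build GRCr8. It was present in 4 of 20 promoters of the list, those of Hspa5, Hsp90b1, Calr and Canx, against 22 of 33469 promoters, or 0.0657%, and 7 of 4192 promoters of genes on the array, or 0.167%. The whole promoters are shown because the match was shared by genes that differed at least 2-fold and genes that did not. Capitals mark the matches, and each strand shown is that of the gene. They lie at chr3:38452766-38453065 (plus strand) for Hspa5, chr7:23012244-23012543 (minus) for Hsp90b1, chr19:40213117-40213416 (plus) for Calr and chr10:35157808-35158107 (minus) for Canx.
Hspa5 promoter: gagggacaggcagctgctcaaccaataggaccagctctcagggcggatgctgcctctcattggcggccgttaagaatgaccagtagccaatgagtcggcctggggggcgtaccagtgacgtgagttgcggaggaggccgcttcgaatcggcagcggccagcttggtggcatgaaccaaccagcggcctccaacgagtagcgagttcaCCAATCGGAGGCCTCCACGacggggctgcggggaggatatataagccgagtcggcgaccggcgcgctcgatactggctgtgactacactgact
Hsp90b1 promoter: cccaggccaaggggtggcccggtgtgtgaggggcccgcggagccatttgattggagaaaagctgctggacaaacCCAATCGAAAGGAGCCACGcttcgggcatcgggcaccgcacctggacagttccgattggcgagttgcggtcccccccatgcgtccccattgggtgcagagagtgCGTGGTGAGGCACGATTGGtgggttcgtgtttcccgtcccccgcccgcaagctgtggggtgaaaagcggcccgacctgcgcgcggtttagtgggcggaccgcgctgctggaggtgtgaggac
Calr promoter: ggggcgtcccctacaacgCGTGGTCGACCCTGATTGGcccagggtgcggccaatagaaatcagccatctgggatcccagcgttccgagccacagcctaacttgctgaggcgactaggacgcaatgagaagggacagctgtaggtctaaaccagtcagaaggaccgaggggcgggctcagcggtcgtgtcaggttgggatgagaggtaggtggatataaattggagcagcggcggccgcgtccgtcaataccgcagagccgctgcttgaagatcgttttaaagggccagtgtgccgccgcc
Canx promoter: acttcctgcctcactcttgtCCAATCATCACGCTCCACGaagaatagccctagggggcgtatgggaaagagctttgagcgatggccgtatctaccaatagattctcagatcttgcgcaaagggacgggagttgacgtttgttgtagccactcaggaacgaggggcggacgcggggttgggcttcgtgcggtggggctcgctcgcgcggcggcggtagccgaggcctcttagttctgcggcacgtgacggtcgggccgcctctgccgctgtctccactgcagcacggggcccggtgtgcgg
Hsp90b1 held 2 matches and the other 3 promoters 1 each, while only Hspa5 and Hsp90b1 were called higher. Counted from the start, the match in Hspa5 lay at -43 to -25 and those in Hsp90b1 at -176 to -158 and -72 to -54. Those in Calr and Canx lay farther out, at -232 to -214 and -230 to -212.

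**Figure D3:**
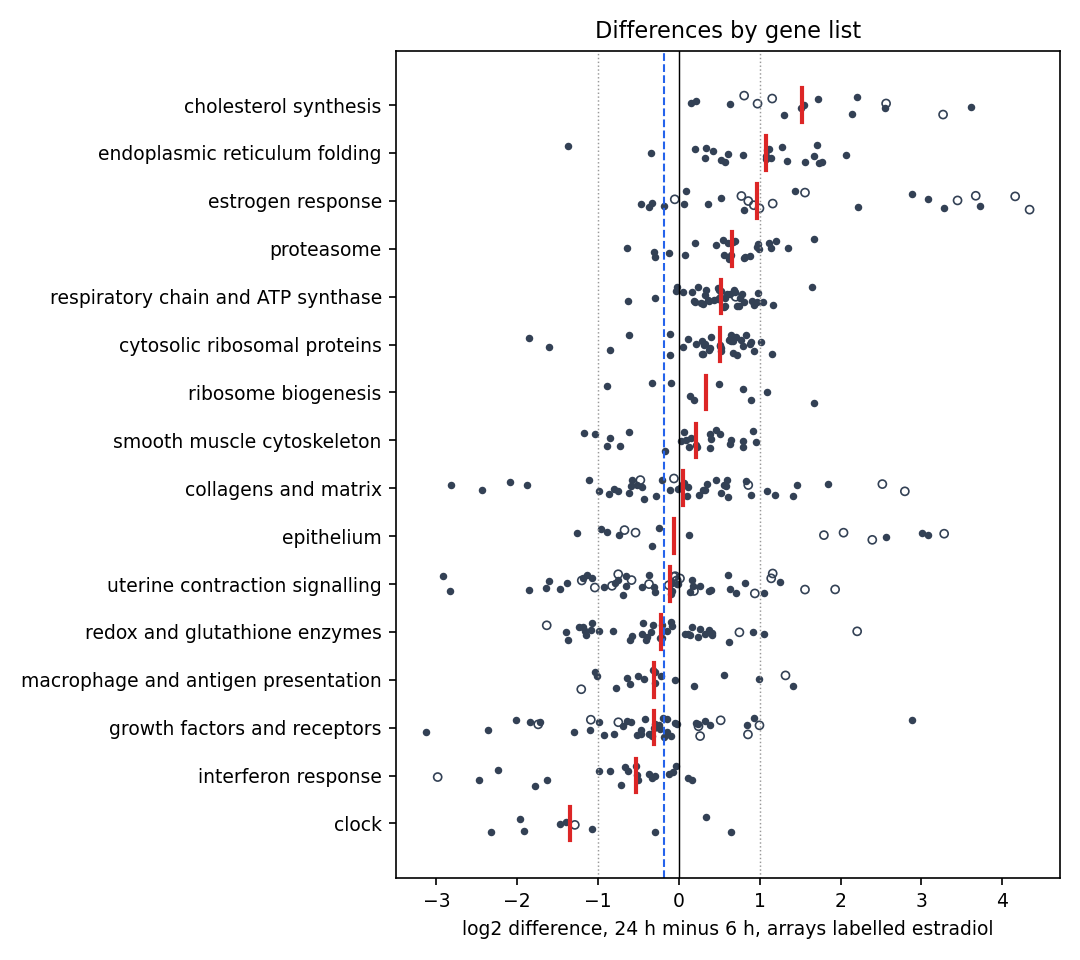
Log2 difference, 24 h minus 6 h on the arrays labelled estradiol, of each measured gene of 16 lists. Open circles are bounds, red bars are list medians, the dashed line is the median of -0.18 over all measured genes and the dotted lines are 2-fold. All cholesterol synthesis genes lie to the right of 0, and 8 of 10 clock genes to its left.

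Cytosolic and mitochondrial folding genes and the proteasome were shifted less. Their counts stand beside 5.8% higher and 9.98% lower over all measured genes. Of 21 heat shock proteins 3 were higher and 0 lower, and the median was 0.23. The 3 were Hspe1 and Hspd1, which form the mitochondrial chaperonin, and Fkbp4, the immunophilin that chaperones steroid receptors. They were 3.24-fold, 2.68-fold and 2.65-fold higher. Each was bright on the 6 h array labelled control too, with 4179, 4886 and 1406 against 6049, 5691 and 1875 on the 24 h array labelled estradiol. Of 26 proteasome genes 5 were higher and 0 lower, and the median was 0.66. Psmc5, an ATPase of the cap, was 3.2-fold higher, Psme2, an activator subunit, 2.55-fold, and Psmd2, a cap subunit, 2.17-fold. The proteasome median was 0.13 against the 6 h array labelled control.

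Genes of ribosome making and translation showed a difference that the choice of 6 h array turned. Of all measured genes 5.8% were higher and 9.98% lower in the estradiol pair. Of 10 ribosome biogenesis genes 2 were higher and 0 lower, and the median was 0.34, against a median of -0.53 with the 6 h array labelled control. Mybbp1a, a nucleolar protein, had signals of 1512 and 473 under the estradiol label and 426 and 1815 under the control label. Ddx21, a nucleolar helicase, had 832 and 392 against 380 and 924. Of 21 translation factors and tRNA synthetases 1 was higher, Tars1, which charges threonine tRNA, at 2.3-fold, and 0 were lower, with a median of 0.25. These 3 genes were highest on the 6 h array labelled control.

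Ribosomal proteins had a median of 0.51 over 37 genes with 2 higher and 2 lower, but quantile normalization turned the median to -0.03. The shares over all measured genes were 5.8% higher and 9.98% lower. Rpl17 and Rpl5 of the large subunit were the lower ones, at 3.63-fold and 3.05-fold. Of 41 respiratory chain and ATP synthase genes 37 had a difference above 0, 3 were higher and 0 lower, and the median was 0.52, or 0.47 after quantile normalization. Ndufb6 of complex I was 3.13-fold higher with 2573 and 822 against 851 and 886. Cyc1 of complex III and Cox5b of complex IV were 2.23-fold and 2.06-fold higher. Other probe sets of Ndufb6 and Cox5b gave 0.74 and 0.64 and were not called. The median of this list was 0.46 between the arrays labelled control as well.

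Clock genes were lower at 24 h. The list of 23 genes had 10 on the array, all measured, of which 7 were at least 2-fold lower and 0 higher. The median was -1.34, and of all measured genes 9.98% were lower and 5.8% higher. Between the arrays labelled control the order was the other way, with 4 of 10 higher, 1 lower and a median of 0.66. All genes measured there had 7.93% higher and 10.1% lower. With the other 6 h array 1 of 10 was lower, near the 9.66% of all genes in that comparison. The list median was -0.57, against -0.15 over all genes.

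Dbp, a clock output factor, was 5.01-fold lower, with signals of 464 and 2329 under the estradiol label and 1674 and 725 under the control label. Per2, a repressor of the loop, had 143 and 558 against 756 and 259. Nr1d2 and Nr1d1, the REV-ERB receptors, had 311 and 1170 against 1316 and 566, and 487 and 1352 against 1181 and 400. Each of these 4 genes was bright on the 6 h array labelled estradiol and the 24 h array labelled control, the same arrays on which Igf1 was dim. Csnk1d, the kinase that marks PER proteins, was 2.63-fold lower, and Hlf, a relative of Dbp, at least 2.44-fold lower. Csnk1d was also 2-fold lower against the 6 h array labelled control, though its other probe set gave 0.35.

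The E-box CACGTG, bound by CLOCK and BMAL1, was present in 4 of 8 clock promoters of the RefSeq table, those of Bhlhe40, Bhlhe41, Nr1d1 and Tef. It was present in 6.42% of all promoters and 8.42% of those of genes on the array. The D-box TTATGTAA, bound by DBP and its relatives, was present in 1 of 8, that of Per2, against 0.893% of all promoters. The windows of the called genes Nr1d1 and Per2 are shown, read on the minus strand of GRCr8, with the match in capitals.
Nr1d1 window: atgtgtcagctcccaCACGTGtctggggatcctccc
Per2 window: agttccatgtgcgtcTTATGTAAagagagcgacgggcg
The Nr1d1 window lies at chr10:84229625-84229660 and the Per2 window at chr9:99497163-99497200. No promoter of 18 estrogen response genes held the estrogen response element, read as GGTCA, any 3 bases and TGACC, which 9 of 33469 promoters held. None of 14 cholesterol promoters held the sterol element TCACCCCAC, against 0.484% of all promoters.

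A few interferon-stimulated genes were lower at 24 h under both labels. The list of 36 genes had 24 on the array. Of 21 measured genes 5 were called lower, against 9.98% of all measured genes, and 0 higher, and the median was -0.53. With the 6 h array labelled control 6 of 21 were lower, against 9.66% of all genes, at the same median. Between the arrays labelled control 5 of 21 were lower, against 10.1% of all genes, and 1 higher, with a median of -0.36. The medians thus had the same sign under either label, while the scan day and the time cannot be told apart.

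Mx1, a GTPase that blocks viruses, had signals of 144 and 797 under the estradiol label and 61.4 and 949 under the control label. Rsad2, the antiviral enzyme viperin, had 159 and 747 against 113 and 693. Irf7, the factor that amplifies the response, had 352 and 1212 against 138 and 1285. Both 6 h arrays stood above both 24 h arrays for all 3. Mx2 was 3.09-fold lower with 255 and 787 against 225 and 1146, and the interferon-induced chemokine Cxcl10 at least 7.91-fold lower with 78.8 and 709 against 122 and 773. The 5 genes had control pair log2 differences of -3.23, -2.61, -3.22, -2.35 and -2.67 in the order Mx1, Rsad2, Irf7, Mx2 and Cxcl10. That of Mx1 is a bound, since its 24 h signal lay below the floor.

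Cytokine genes, Cxcl10 among them, were called in both directions, 3 higher and 6 lower of 34 with a median of -0.27. All measured genes had 5.8% higher and 9.98% lower. Cxcl13, the B cell chemokine, was 6.05-fold lower, with 100 on the 24 h array labelled estradiol against 605 at 6 h and 524 and 457 under the control label. Csf1, the macrophage growth factor, was 3.36-fold lower and Il15, which sustains natural killer cells, 3.13-fold lower. The higher ones were Ccl11, the chemokine scavenger Ackr3 at least 3.64-fold and the transcription factor Stat3 at 2.25-fold, whose sign turned with a floor at the 60th percentile and with the 6 h array labelled control. Ackr3 was dim on the 6 h array labelled estradiol alone, at 69.7 against 374 to 476 on the others.

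Growth factor genes other than Igf1 were lower or not called. Of 47 genes 1 was higher and 9 lower, with a median of -0.31, where 5.8% and 9.98% of all measured genes were called. Igfbp3, which binds IGF1 in the tissue fluid, was 8.71-fold lower, with signals of 331 and 2882 under the estradiol label and 1023 and 719 under the control label. Igf1r, the IGF1 receptor, was 5.15-fold lower with 162 and 832 against 707 and 279. Igfbp5, another binding protein, was 4.05-fold lower with 937 and 3792 against 89.1 and 626. On the brightest probe sets of the estradiol pair the IGF ligand was thus higher at 24 h and the receptor and 2 binding proteins lower. Against the 6 h array labelled control Igf1 was at -0.60 and Igf1r at -0.79, neither called, while Igfbp3 was still called lower at -1.12. The other probe set of Igf1r gave -0.46 in the estradiol pair and was not called. Of the probe sets of Igfbp5 another gave 0.35, and against the 6 h array labelled control Igfbp5 had a difference of 0.58. Ntf3, a neurotrophin, was 3.58-fold lower and Fgf9 at least 3.34-fold lower. Ngfr, the receptor that binds neurotrophins, was 5.7-fold higher with 3190 and 560 against 846 and 5914, while its other probe set gave -0.75.

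Genes of uterine contraction signalling had 6 higher and 12 lower of 54, with a median of -0.11. All measured genes had 197 higher and 339 lower and a median of -0.18. Galr2, a galanin receptor, was 7.57-fold lower, with signals of 191 and 1446 under the estradiol label and 1438 and 102 under the control label. Gucy1a1, a guanylyl cyclase chain that senses nitric oxide, was 7.11-fold lower with 195 and 1386 against 1241 and 353. Agtr1a, the contractile angiotensin receptor, was 3.62-fold lower with 254 and 919 against 1131 and 217. These 3 were dim on the arrays where Igf1 was bright.

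Agtr2, the other angiotensin receptor, was at least 3.82-fold higher by its brighter probe set, with signals of 391 and 6.0 under the estradiol label and 48.7 and 9.9 under the control label. Its other probe set lay below the floor on both arrays labelled estradiol. Pln, the inhibitor of the calcium pump, was 3.13-fold lower with 124 and 387 against 391 and 112. Adrb3, the beta-3 adrenergic receptor, was 3.05-fold lower and was lower against the 6 h array labelled control too. Among 15 potassium channel genes 2 were higher and 3 lower, and the median was -0.18. The channel counts are read against the 5.8% higher and 9.98% lower of all measured genes. Kcnd3, of a transient current, was 4.14-fold lower, and Kcns3, a modifying subunit, at least 3.03-fold higher. Of 14 calcium channel genes 13 had a difference below 0, 3 were called lower and 0 higher, and the median was -0.70. Cacna1b and Cacna1d, pore subunits of the N and L type, were at least 3.75-fold and 2.87-fold lower. The other probe sets of Cacna1b, Cacna1d and Kcnd3 lay below the floor on both arrays labelled estradiol.

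Genes of the contractile apparatus are likewise read against the 5.8% higher and 9.98% lower of all measured genes. Of 25 smooth muscle cytoskeleton genes, which also check the tissue label, all 25 were above the floor on both arrays, 0 were higher and 2 lower, and quantile normalization turned the median of 0.21 to -0.06. Acta2, the smooth muscle actin, had signals of 17195 and 10961 under the estradiol label and 16652 and 13964 under the control label. Myh11, the smooth muscle myosin, had 15095 and 10608 against 17850 and 13915. Its other probe sets differed by 2.37 and -1.45, so the gene has no single direction. Myl9, the regulatory light chain, had a difference of 0.79 on its brightest probe set and of 2.75 on another. Cav3 and Ppp1r12a, a caveolin and the myosin phosphatase subunit, were the genes called lower, at 2.26-fold and 2.05-fold.

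Matrix genes were called in both directions, 7 higher and 5 lower of 46, with a median of 0.06. All measured genes had 5.8% higher and 9.98% lower. Efemp1, the fibulin-like glycoprotein, was 7.04-fold lower, with signals of 470 and 3308 under the estradiol label and 4250 and 1763 under the control label. Postn, or periostin, was 5.41-fold lower with 1070 and 5787 against 5270 and 2948. Gpc3, a surface proteoglycan, and Sparcl1, a matricellular protein, were 4.26-fold and 3.67-fold lower. The 24 h array labelled estradiol was the lowest of the 4 for all of these.

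Spon1 and Vcan, a spondin and the proteoglycan versican, went the other way. Spon1 was at least 6.94-fold higher, at 711 on the 24 h array labelled estradiol against 72.0 to 110 on the others. Vcan was at least 5.72-fold higher, at 586 against 48.9 to 152. Neither difference turned on which 6 h array was used. Among 29 matrix proteases and inhibitors 2 were higher and 6 lower, against 5.8% and 9.98% of all measured genes, and the median was -0.25. Mmp7, an epithelial metalloprotease, was 5.9-fold higher, at 872 against 126 to 148 on the other arrays, and Plaur, the urokinase receptor, at least 3.84-fold higher. Mmp11 and Serping1, a stromal metalloprotease and the C1 inhibitor, were 4-fold and 3.83-fold lower.

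Epithelial markers were higher at 24 h in part of their list. Of 16 measured genes 7 were called higher and 1 lower, while the median was -0.06. Over all measured genes the shares were 5.8% and 9.98%. Of the 16, 6 exceeded the floor on 1 array only, and so count as measured through their brighter array. Krt8, a keratin of simple epithelium, had signals of 996 and 69.5 under the estradiol label and 206 and 404 under the control label and was at least 9.72-fold higher. Krt19 had 1101 and 137 against 255 and 328, and Krt18 had 538 and 85.8 against 127 and 520. On these probe sets all 3 keratins were brightest on the 24 h array labelled estradiol and dimmest on the 6 h array of that label. The other probe set of Krt18 had 293 and 84.9 against 73.3 and 323, so it was brightest on the 6 h array labelled control. That of Krt19 had 455 and 142 against 141 and 256.

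Epcam and Cldn3, an adhesion and a junction protein of epithelia, were at least 3.47-fold and 4.1-fold higher, and Cd24 and Mmp7, named above, complete the 7. Spint2, a protease inhibitor, was 2.39-fold lower. The summed signal of the 17 markers on the array was 11066 at 24 h and 8391 at 6 h under the estradiol label and 9562 and 8738 under the control label, and 14, 12, 16 and 15 of them were above the floor. Kap, C3, Cuzd1 and Ccl11 of the estrogen response list were likewise brightest on the 24 h array labelled estradiol. The part of epithelial cells in the results was not tested.

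Markers of the other cell types the wall can hold are set beside all measured genes, of which 5.8% were called higher and 9.98% lower. Endometrial stroma had 1 higher and 0 lower of 10 with a median of -0.24, the higher one being Igf1. Endothelium had 0 higher and 1 lower of 7 with a median of -0.18, the lower one being Vwf, at 32.5 against 185. Macrophage and antigen presentation genes had 2 higher and 3 lower of 18 with a median of -0.31, with Fcgr2b, an antibody receptor, and Coro1a, a leukocyte actin-binding protein, higher and Ptprc, the leukocyte antigen CD45, at least 2.31-fold lower. With a floor at the 60th percentile Coro1a turned to -0.053. Other probe sets of Vwf and Ptprc lay below the floor on both arrays labelled estradiol. The summed signal of that list was 10955 at 24 h and 12610 at 6 h. Of its genes 13 had a difference below 0 and 5 above. Granulocyte and mast cell genes had 2 of 13 above the floor on both arrays, with 0 called and a median of -0.59.

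Lymphocyte genes had 0 called of 8 with a median of -0.28, and blood genes 0 of 6 with a median of -0.14. Adipocyte genes had 3 lower of 4 measured with a median of -1.34, namely Cfd, the adipocyte complement factor, at least 4.58-fold, Lpl, and Cidea of the lipid droplet at 2.41-fold. Their summed signal over 8 markers was 2550 at 24 h and 4597 at 6 h under the estradiol label and 6088 and 5041 under the control label. Fat next to the muscle carries these genes, and its part in the differences of lipid genes was not tested. Nerve genes had 1 higher of 9, the neuropeptide precursor Tac1, and 0 lower, with a median of -0.24. Skeletal muscle and mesothelium genes had 1 higher and 2 lower of 8 with a median of -0.12. Acta1, the skeletal actin that smooth muscle also makes, was 4.22-fold higher with 7999 and 1896 against 2676 and 5269, and Tnnt3 and Wt1, a skeletal troponin and a mesothelial factor, were 2.97-fold and 2.82-fold lower. Wt1 turned to 0.27 with the 6 h array labelled control.

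Central metabolism had 4 higher and 2 lower of 38, with a median of 0.15. The counts of this paragraph stand beside 5.8% higher and 9.98% lower over all measured genes. Me1, the malic enzyme that supplies NADPH, was 3.27-fold higher and Pgk1, a glycolytic kinase, 3.17-fold, at 6053 and 1907 against 2199 and 2218. Ldhb, a lactate dehydrogenase subunit, was 3.52-fold lower and Pygb, a glycogen phosphorylase, 2-fold lower, though Pygb turned to 0.99 with the 6 h array labelled control and another of its probe sets gave 0.27. Redox and glutathione genes had 2 higher and 9 lower of 40, with a median of -0.22. Gpx2, a glutathione peroxidase of epithelia, was at least 4.61-fold higher, at 473 against 22.5 to 93.9 on the others. Txnip, the thioredoxin inhibitor, was 2.59-fold lower with 2186 and 5655 against 7576 and 2014. The electron carrier Cyb5a was 2.64-fold lower and the metallothionein Mt3 at least 3.11-fold lower. With the 6 h array labelled control Txnip turned to 0.12 and Cyb5a to 0.50.

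Steroid receptor and metabolism genes had 4 higher and 5 lower of 35, with a median of -0.14. For this and the next 2 lists the shares over all measured genes were 5.8% higher and 9.98% lower. Besides Hsd11b2 and Pgr, the largest difference was that of Sult1a1, a sulfotransferase, 6.71-fold lower with 149 and 1003 against 1096 and 215. Immediate-early genes had 2 higher and 6 lower of 35, with a median of -0.31. Gadd45a, a damage-induced growth regulator, Dusp1, a MAP kinase phosphatase, and Id3, an inhibitor of differentiation factors, were 3.11-fold, 2.8-fold and 2.28-fold lower, and Klf4, a zinc finger factor, was 2.22-fold higher but at -0.42 with the 6 h array labelled control. Polyamine genes had 1 higher of 8, Odc1, and 0 lower, with a median of 0.58.

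Cell cycle genes had 2 higher and 3 lower of 29, with a median of 0.00. That is near the 5.8% higher and 9.98% lower of all measured genes, against which this paragraph is read. Mcm6, of the replication helicase, was 2.62-fold higher, though another of its probe sets gave 0.48 and was not called. Mcm7, of the same helicase, was 2.11-fold lower. Cdkn1b and Ccnd2, the inhibitor p27 and cyclin D2, were 2.94-fold and 2.56-fold lower. Neither was called with the 6 h array labelled control, where Cdkn1b turned to 0.28 and Ccnd2 was at -0.62. Wnt and Notch genes had 1 higher and 3 lower of 16, with a median of -0.56. Sfrp4, a secreted Wnt binder, was 2.81-fold higher and Notch1 2.33-fold lower. Water and sodium transport had 0 higher and 3 lower of 20 with a median of -0.28, led by Atp1b1, the sodium pump subunit, at 2.57-fold. Its signals were 1526 and 3918 under the estradiol label and 2353 and 668 under the control label, so that against the 6 h array labelled control it was 2.28-fold higher. Secretory pathway traffic had 1 higher and 2 lower of 37 with a median of 0.17, and Cpe, which trims peptide hormones, was 3.61-fold lower.

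Some genes among the largest differences belonged to none of these groups. Nme1, a nucleoside diphosphate kinase, was 5.71-fold higher, with signals of 1507 and 264 under the estradiol label and 460 and 476 under the control label. Lrrc59, an endoplasmic reticulum membrane protein, was 5-fold higher with 4277 and 855 against 1340 and 2085. Papss2, which makes the sulfate donor, was 5-fold higher with 654 and 131 against 185 and 61.0. All 3 were at least 2-fold higher against either 6 h array. Slco2a1, the prostaglandin transporter, was 4.56-fold higher with 1726 and 378 against 226 and 1492. B4galt1, a galactosyltransferase, was at least 8.73-fold higher with 894 and 68.6 against 274 and 667. It was not called against the 6 h array labelled control, at 0.42. Ppil3, a cyclophilin-like isomerase, was at least 7.42-fold higher with 760 and 72.4 against 183 and 198, though its other probe set gave 0.71.

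On the lower side, Dock8, an exchange factor of leukocytes, was 6.32-fold lower with signals of 440 and 2780 under the estradiol label and 1148 and 1113 under the control label. Hivep2, a zinc finger factor, was 5.18-fold lower and Marcks, a kinase substrate at the membrane, 4.8-fold lower. Sncg, or gamma-synuclein, was at least 6.99-fold lower, at 46.3 against 570 to 626 on the others. Rims1, of the synaptic release site, was at least 5.19-fold lower with 46.2 and 464 against 284 and 51.3. Dock8, Marcks and Sncg were also at least 2-fold lower against the 6 h array labelled control on their brightest probe sets. In the estradiol pair the other probe sets of Dock8 gave -2.39 and -0.53. The other measured ones of Marcks gave -1.15, -0.44 and -0.30, so not all probe sets of these genes were called.

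The same span of time between the arrays labelled control gave 274 genes higher and 349 lower of 3454, that is 7.93% and 10.1%. This pair shares no array with the estradiol pair but has the same 2 scan days. It includes the 24 h array labelled control, whose wash record stopped with a communication error. Of the 197 genes higher in the estradiol pair, 12 were higher in the control pair (6.09%) and 44 were lower (22.3%). These are 4.38% of the genes higher and 12.6% of the genes lower in the control pair. Of the 339 lower genes, 67 were higher in the control pair (19.8%) and 33 lower (9.73%), or 24.5% and 9.46% of the control pair's lists. Genes of the estradiol pair were thus called more often in the opposite direction than in the same one, and most, 141 and 239, were not called in the control pair. The genes lower at 24 h in both pairs included the 5 interferon genes, Igfbp5, Cav3, Tnnt3 and Id3.

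**Figure D4:**
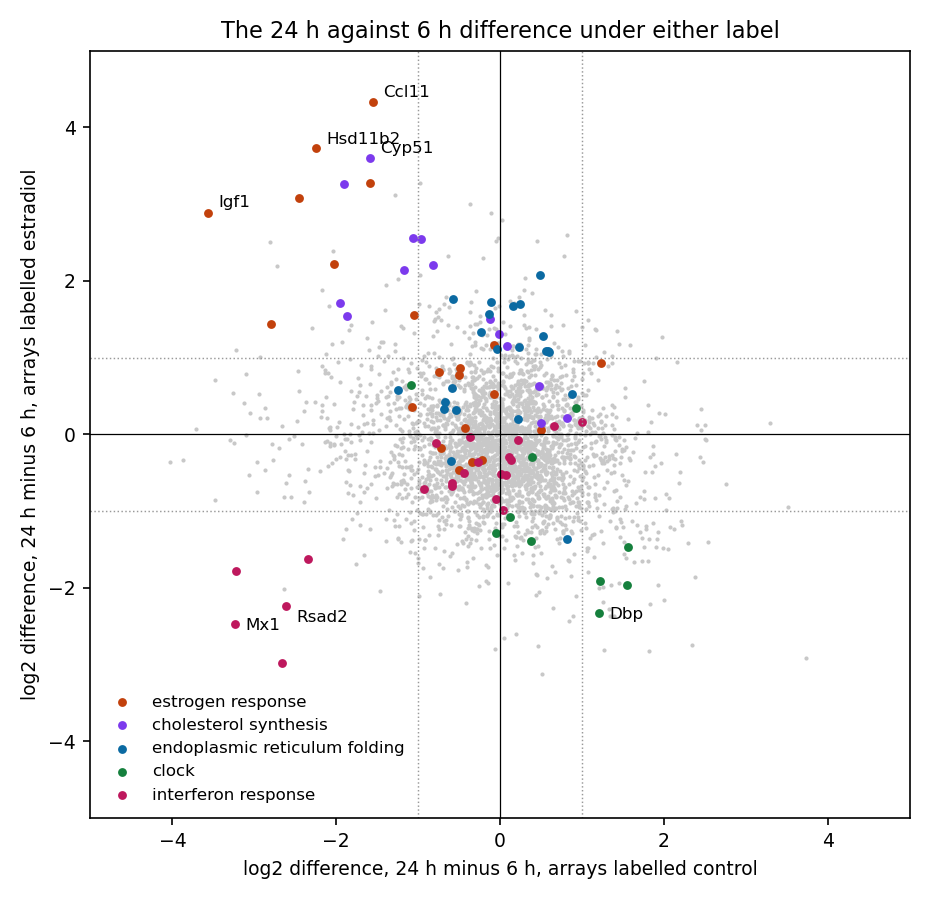
Log2 difference, 24 h minus 6 h, of each gene measured in both pairs, on the arrays labelled estradiol (vertical) and on those labelled control (horizontal). The dotted lines are 2-fold and coloured points are genes of 5 lists. Igf1, Hsd11b2 and Cyp51 lie at the upper left, Dbp at the lower right, and Mx1 and Rsad2 at the lower left, where both pairs were lower at 24 h.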

How the data were processed

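Total RNA of 4 pools was labelled with biotin and measured on 1 array each. The values are the signal intensities in the authors' deposited table, made with MAS5 per the submitters' processing notes. Neither version nor settings were given in the sources used here. Each deposited column had a 2% trimmed mean of 500, and rescaling to it changed no call. Signals were raised to a floor at the 40th percentile of the array (89.5 to 108.2) and turned to log2. With 1 array a side there is no spread between replicates, no test and no p-value, and the number of arrays limits the precision.

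By the platform annotation, 7018 probe sets had 1 gene symbol and were named, 308 had several, and 1473 had none. Looking the symbols up among RefSeq genes updated 0 and left 24 unmatched. A gene was its probe set with the highest mean log2 signal over the 4 arrays. The genes and the 39 lists (28 of pathways and complexes, 11 of cell types) were chosen with earlier results of these data known. Named genes were the 15 largest differences in each direction, the 8 largest bounds in each direction, up to 6 called genes per list, and genes given by name. The text uses part of these.

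Alternatives were the deposited values, quantile normalization, a common median, a pseudocount of 50, a floor at the 20th or 60th percentile, 1.5-fold and 3-fold rules, averaging the probe sets of a gene, leaving out probe sets of shared or special design, and the 6 h array labelled control. The 2-fold rule was run on simulated arrays with independent noise and no shift with signal level. That run checked the procedure and gives no error rate for these arrays. Promoters came from RefSeq (GRCr8). Python 3.11.15, pandas 2.3.3 and numpy 2.4.6 were used. The deposited instrument records served only to look up scan days and wash steps.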

Additional observations from a re-analysis of the deposited data

Results flagged for a closer look

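For 42 of 134 called genes named, not counting Mcm7, the 24 h against 6 h difference was at least 2-fold in opposite directions under the 2 labels. Over all genes called in the estradiol pair this held for 44 of 197 higher and 67 of 339 lower ones. The named genes were picked largely by the size of their difference. The control pair includes the 24 h array whose wash record stopped with a communication error. Each pair is 2 arrays, so the difference between the pairs was not tested. The values below are log2 differences, 24 h minus 6 h. Where the dimmer array lay at its floor, the true difference is at least as large. In the estradiol pair this holds for Ccl11, Oxtr, Idi1, Fdft1, Krt18, Plaur, B4galt1, Coro1a, Cacna1d and Rims1. In the control pair it holds for Oxtr, Idi1, Fdft1, Coro1a, Galr2 and Rims1.

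The estrogen-regulated genes were higher at 24 h in the estradiol pair and lower in the control pair. Ccl11 differed by 4.34 in the estradiol pair and by -1.55 in the control pair, and Hsd11b2 by 3.73 and -2.25. S100g gave 3.28 and -1.59, Cd24 3.08 and -2.46, and Igf1 2.88 and -3.57. Pgr gave 2.22 and -2.03, Oxtr 1.56 and -1.05, and Odc1 1.44 and -2.80. Among sterol enzymes Cyp51 gave 3.61 and -1.59, Idi1 3.27 and -1.90, Fdft1 2.56 and -1.07, and Sqle 2.14 and -1.18.

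The same order held for the neurotrophin receptor Ngfr with 2.51 and -2.80, the prostaglandin transporter Slco2a1 with 2.19 and -2.73, B4galt1 with 3.13 and -1.28, and the keratin Krt18 with 2.39 and -2.04. Plaur gave 1.94 and -1.39, Mybbp1a 1.68 and -2.09, Tars1 1.20 and -1.44, and Ddx21 1.09 and -1.28. The leukocyte genes Fcgr2b and Coro1a gave 1.41 and -1.21, and 1.32 and -1.05.

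The remaining genes were lower at 24 h in the estradiol pair and higher in the control pair. Among genes of uterine contraction signalling Galr2 gave -2.92 and 3.73, Gucy1a1 -2.83 and 1.81, Agtr1a -1.86 and 2.38, and Pln -1.65 and 1.81. The calcium channel gene Cacna1d gave -1.52 and 1.06. Clock genes were Dbp with -2.33 and 1.21, Per2 with -1.97 and 1.54, Nr1d2 with -1.91 and 1.22, and Nr1d1 with -1.47 and 1.56. Matrix and growth factor genes were Efemp1 with -2.81 and 1.27, Igf1r with -2.36 and 1.34, and Mmp11 with -2.0 and 1.21.

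The others were Sult1a1 with -2.75 and 2.35, Rims1 with -2.38 and 1.39, Il15 with -1.65 and 1.73, Wt1 with -1.50 and 2.05, Lpl with -1.42 and 2.30, Cyb5a with -1.40 and 2.54, Txnip with -1.37 and 1.91, and Atp1b1 with -1.36 and 1.82.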

How the results depend on the processing

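Dependence on the 6 h array was the main limit. With the 6 h array labelled control in its place, 68 of 132 called genes that could be compared kept their call and 21 changed sign, and the medians of estrogen response, cholesterol synthesis and clock genes were 0.12, 0.96 and -0.57. The genes that changed sign were Igf1 (-0.60), Pgr (-0.32), S100g (-0.13), Ngfr (-0.89), Mybbp1a (-0.26), Ddx21 (-0.15), Tars1 (-0.34), Ackr3 (-0.35), Klf4 (-0.42), Stat3 (-0.72), Nr1d1 (0.28), Igfbp5 (0.58), Galr2 (0.82), Agtr1a (0.23), Pln (0.15), Txnip (0.12), Cyb5a (0.50), Pygb (0.99), Cdkn1b (0.28), Wt1 (0.27) and Atp1b1 (1.19). In the estradiol pair, scaling to a common median gave 330 genes higher and 198 lower. Floors at the 20th and 60th percentiles gave 334 and 581, and 118 and 189, with an estrogen response median of 1.44 under either. The 1.5-fold and 3-fold rules gave 500 and 884, and 67 and 74. Between the arrays labelled control the same floors gave 441 and 569, and 156 and 200, and the same rules 642 and 721, and 72 and 155. Quantile normalization turned the median of the cytosolic ribosomal proteins to -0.034. The floor at the 60th percentile turned Gja1 to -0.21, Coro1a to -0.053 and Stat3 to -0.20. Leaving out probe sets of shared or special design turned Igf1 to -0.22 and Igfbp5 to 0.35. Of 134 called genes named, not counting Mcm7, 134 kept their call with the deposited values and 134 with the floor at the 20th percentile. With the common median 128 kept it, with quantile normalization 130, with the pseudocount 128 and with the mean of the probe sets 125. With the floor at the 60th percentile 101 of 129 measurable genes kept it, and without probe sets of special design 104 of 110. No paired analysis was possible because each group is 1 array. Signals below the floors of 89.5 to 108.2 give bounds only.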
